A study of Mus musculus with 6 samples.

Results

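The genes described are those whose symbol begins with Nduf, which code for the nuclear-encoded subunits of respiratory complex I and for proteins that help to assemble it. Members were all probe sets that the platform's gene table pairs with 1 symbol of that form, and each gene was represented by its probe set with the highest mean log2 signal over the 6 arrays. This gave 44 genes on 88 probe sets, out of 18193 genes on 34945 probe sets with 1 symbol. The arrays carried total RNA of gastrocnemius, a large mixed-fibre calf muscle, from male mice of strain C57B1/6 with a normal karyotype. Young muscle was hybridised to 3 arrays (1, 2 and 3) and aged muscle to 3 (51, 52 and 53). No treatment is named, and how old the mice were is not given in the labels. Each age is registered as 1 sample with 3 replicates, and nothing in the labels says that these were different animals. The p-values therefore cover the spread between arrays alone, which may be technical.

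Complex I, the NADH:ubiquinone oxidoreductase of the inner mitochondrial membrane, takes electrons from NADH, passes them along iron-sulfur clusters to ubiquinone and pumps protons. Its matrix arm holds the N module, where NADH is oxidised at a flavin, and the Q module, where ubiquinone is reduced, while its membrane arm moves the protons. Core subunits carry the chemistry, accessory subunits surround and stabilise them, and assembly factors (the Ndufaf genes) act while the complex is built and are not part of the finished enzyme. Slow-twitch fibres, which work by respiration, are rich in mitochondria.

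Signals are linear array intensities, divided by 1000 where values are given array by array. A change is aged minus young on the log2 scale, with n = 3 arrays in each group and the standard error of the limma fit. The arrays had median signals of 637 to 833. Defining muscle genes (Ckm, Acta1, Myh4, Mb, Des and Tnnt3) were detected, with Des dimmest at 733 to 5979 and down to 733 on aged array 51, below that array's median of 833. All 6 were below 0, beside 49.5% of all tested probe sets, and 0 passed, beside 1.05%. Their summed signal was 1468220 to 1773430 in young and 1109480 to 1288050 in aged muscle. All 8 slow-twitch markers had lower signals on every aged array than on any young one, beside 8.74% of all tested probe sets. Of these markers 7 fell past the test, beside 0.742%. Their summed signals were 149059 to 182668 in young and 19865 to 23563 in aged muscle. Aged readings of Tnnt1 (167 to 617) and Tnni1 (221 to 684) reached below the filter's signal of 540, which both passed through their young readings. Among 7 fibroblast markers 4 fell, beside the same 0.742%, with sums of 500821 to 776203 and 69134 to 79007. Of 5 tested macrophage and 2 tested brown fat markers 0 passed, beside 1.05% of all tested probe sets, and 3 blood markers were below the filter. Of 6 tested fat cell markers 3 rose (Adipoq 1.89, Retn 2.35 and Fabp4 1.11), beside 70 of 22519 tested probe sets. Cidec was at 1.63, Lep at 0.20 and Car3 at -0.09. The fat marker sums were 673930 to 798916 in young and 730489 to 892685 in aged muscle. Car3 made up most of them, with 588340 to 725297 in young and 549895 to 636861 in aged muscle. The log2 ratio of 3 prime to 5 prime control signal, a measure of RNA quality, was 1.71 to 1.77 on the young arrays and 2.11, 2.00 and 2.86 on aged arrays 51, 52 and 53 (difference 0.58, two-sided exact permutation p = 0.1, the smallest that 3 against 3 arrays allow). Aged arrays 52 and 53 were washed on a second fluidics station, and the other 4 arrays on the first. The part of these differences in the results on complex I was not tested, and in whole muscle fewer cells of a type and less RNA per cell cannot be told apart.

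On the chosen probe sets, most complex I subunits had lower signals in aged muscle, by small amounts. No gene passed the test across all probe sets on its chosen one. Of all 75 tested Nduf probe sets 1 passed (1.33%, beside 1.05% of all tested probe sets), a dimmer one of Ndufc2 at -1.34. Of the 44 genes 40 had a chosen probe set above the filter on dim signals, and 34 of these 40 had a change below 0, as did 49.5% of all 22519 tested probe sets. The median change was -0.36 over the 40 genes and 0.0079 over all tested probe sets. By limma with Benjamini-Hochberg adjustment 0 of 40 passed an adjusted p of 0.05, against 1.05% of all tested probe sets (0.742% lower in aged muscle), and the lowest adjusted p was 0.226. At an unadjusted p under 0.05 there were 10 of 40 lower (25%) and 0 higher, beside 5.61% and 4.43% of all tested probe sets. On 11 of 40 genes (27.5%) every aged array lay below every young one, beside 8.74% of all tested probe sets, and on 0 every aged array lay above, beside 7.41%.

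The members are bright, and bright probe sets leaned the same way. The median member lay at percentile 96.9 of the brightness of all tested probe sets. Of the 1717 tested probe sets at or above the lower quartile of the members' brightness, 64.5% had a change below 0, 23.7% had all aged arrays below all young arrays, and the median change was -0.15. Among the 30 members in that range 27 were below 0, with a median of -0.37. On 9 of these 30 members (30%) all aged arrays lay below all young ones. No test of the list as a whole was run.

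Subunits and assembly factors differed in their counts. For 32 measured core and accessory subunits 30 changes were below 0 (median -0.37), and for 7 measured Ndufaf factors 3 were below 0 (median 0.01). The difference between these classes was not tested. Ndufaf6 passed the filter of 9.08 on mean log2 signal through its aged arrays (mean 10.15), since its young mean was 8.85. A stricter filter left it out, and the median of the factors was then -0.0146. By place in the complex, all 9 measured N module subunits were below 0 (median -0.36), as were 3 of 4 of the Q module (median -0.28) and 16 of 17 of the membrane arm (median -0.36).

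**Figure D1:**
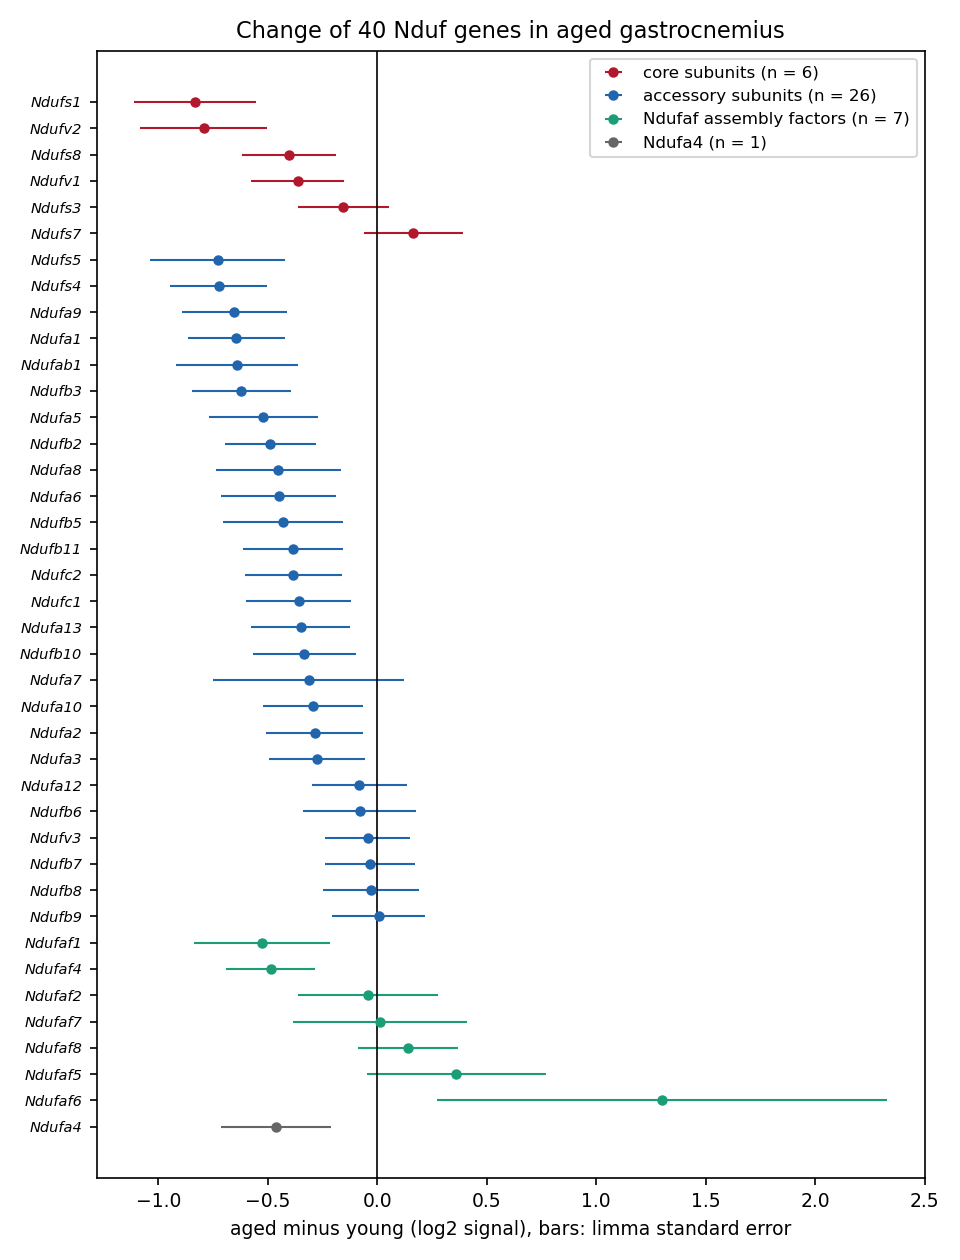
Change of each of the 40 measured Nduf genes, aged minus young on the log2 signal scale, with bars for limma's standard error (n = 3 arrays per group), coloured by class. Core and accessory subunits lie mostly left of 0, with Ndufs1 lowest at -0.83, and 4 of 7 assembly factors lie at or right of 0, Ndufaf6 with the widest bar.

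Of the 6 measured core subunits, the lowest changes were those of Ndufs1 and Ndufv2, both of the N module. Ndufs1, the large iron-sulfur subunit of the N module, had signals of 18.2, 14.6 and 18.7 on young arrays 1, 2 and 3 and of 6.26, 12.4 and 11.4 on aged arrays 51, 52 and 53. All aged values lay below all young ones, with array 51 at the bottom, and the mean was 1.78-fold higher in young muscle (-0.83 ± 0.28, adjusted p = 0.286). Station 2 held aged arrays only, so a fit with the station as a term, like one on the 4 arrays of station 1, compares aged array 51 alone with the young arrays. In that comparison of 1 aged array Ndufs1 was at -1.45 (adjusted p = 0.0444 and 0.0351 in these fits), and without array 51 it was at -0.52 (adjusted p = 0.516). Over all alternatives its adjusted p lay between 0.0351 and 0.625. Ndufv2, which carries a binuclear iron-sulfur cluster beside the flavin, read 183, 126 and 99.9 in young and 101, 52.0 and 84.0 in aged muscle. These groups overlapped at young array 3 and aged array 51 (-0.79 ± 0.29, adjusted p = 0.353). Its other probe sets were at -0.32 and -0.71, and on the latter the groups did not overlap. Ndufv1, the flavin subunit where NADH is oxidised, read 25.9, 28.2 and 27.4 in young and 17.6, 20.5 and 25.9 in aged muscle (-0.36 ± 0.21). Aged array 53 stood level with young array 1, and the other aged arrays stood below.

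The other core subunits belong to the Q module. Ndufs8, which carries a pair of iron-sulfur clusters on the way to ubiquinone, read 31.5, 27.2 and 32.9 in young and 19.6, 22.3 and 27.9 in aged muscle (-0.40 ± 0.21, adjusted p = 0.562). All 6 of its tested probe sets were below 0, from -0.23 to -0.69. Ndufs3, an early building block of the Q module, read 14.0, 14.5 and 15.1 in young and 13.2, 11.97 and 14.1 in aged muscle (-0.16 ± 0.21). Ndufs7, which holds the last iron-sulfur cluster before ubiquinone, was the only core subunit above 0, with 54.7, 50.2 and 47.8 in young and 52.3, 46.6 and 75.7 in aged muscle (0.17 ± 0.22). Only array 53 was high, without it the change was -0.04, and the other Ndufs7 probe set was at -0.21.

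Of 26 measured accessory subunits 25 had a change below 0, and on 9 (34.6%) the aged arrays all lay below the young ones, beside 8.74% of all tested probe sets and 23.7% of the bright ones. The lowest was Ndufs5, a membrane arm subunit on the intermembrane side, at 6.45, 6.403 and 6.89 in young and 2.75, 3.91 and 5.80 in aged muscle (-0.73 ± 0.31, adjusted p = 0.45). The aged arrays spanned more than 2-fold, and all lay below the young. Ndufs4, needed for a stable N module, read 51.7, 47.4 and 38.5 in young and 22.4, 28.2 and 33.1 in aged muscle. Its groups did not overlap, young muscle was 1.65-fold higher, and the adjusted p of 0.226 was the lowest of all members (-0.72 ± 0.22). The other 3 tested Ndufs4 probe sets were at -0.33, -0.65 and -0.33, each with overlapping groups.

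Ndufa9, which lies at the joint of the arms near the ubiquinone site, read 14.2, 14.6 and 14.96 in young and 7.01, 10.1 and 11.2 in aged muscle (-0.65 ± 0.24). The young arrays lay close together and well above the aged ones. Ndufa1, a small X-linked membrane subunit, read 276, 306 and 245 in young and 151, 177 and 202 in aged muscle (-0.64 ± 0.22, adjusted p = 0.311). Ndufb3, also of the membrane arm, read 40.9, 40.6 and 35.9 in young and 19.8, 25 and 33.2 in aged muscle (-0.62 ± 0.23). On both genes the groups were apart, and array 53 was the highest of the aged arrays. Ndufab1, the mitochondrial acyl carrier protein, which also serves fatty acid and lipoate synthesis, read 46.8, 23.5 and 25.4 in young and 16.9, 17.8 and 24.3 in aged muscle (-0.64 ± 0.28). Here young array 1 stood far above the rest and array 53 overlapped the young arrays. The second tested Ndufab1 probe set was at -0.26 with groups apart. Ndufa5, a Q module subunit, read 373, 401 and 273 in young and 238, 201 and 289 in aged muscle (-0.52 ± 0.25). Ndufb2, of the membrane arm, read 31.1, 31.7 and 28.9 in young and 21.0, 18.9 and 26.1 in aged muscle (-0.49 ± 0.21). Groups overlapped for Ndufa5 and not for Ndufb2.

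At the other end of the accessory subunits some changes were near 0. Ndufb9, a membrane arm subunit that binds the acyl carrier protein, read 152, 136 and 114 in young and 144, 120 and 138 in aged muscle (0.01 ± 0.21), the only accessory subunit above 0. Ndufb8, a subunit often probed on blots to follow complex I, read 69.6, 75.2 and 84.2 in young and 68.9, 63.6 and 94.7 in aged muscle (-0.03 ± 0.22). Ndufb7, on the intermembrane side of the membrane arm, read 32.7, 28.3 and 31.6 against 32.4, 25.03 and 33.6 (-0.03 ± 0.21). Ndufv3, beside the flavin subunits, read 71.6, 77.8 and 63.4 in young and 66.9, 69.3 and 69.5 in aged muscle (-0.04 ± 0.19). In these 4 genes young and aged values were interleaved. Ndufb6 and Ndufa12 were also near 0 (both -0.08). Between these ends lay Ndufa6 and Ndufa8 (both -0.45), Ndufb5 (-0.43), Ndufb11 (-0.39), Ndufc2 (-0.38), Ndufc1 (-0.36), Ndufa13 (-0.35), Ndufb10 (-0.33), Ndufa7 (-0.31), Ndufa10 and Ndufa2 (both -0.29) and Ndufa3 (-0.28). Of these 12, the groups were apart, aged below young, for Ndufa6, Ndufc2 and Ndufa13, beside 8.74% of all tested probe sets and 23.7% of the bright ones. Ndufb1 and Ndufb4 had a mean below the filter and were not tested, with readings of 0.0639 to 1.07 and 0.0540 to 0.957.

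In the Ndufaf assembly factors changes lay on both sides of 0. Ndufaf1, which acts on membrane arm intermediates, read 4.42, 4.56 and 3.50 in young and 2.32, 2.89 and 3.51 in aged muscle (-0.53 ± 0.31, adjusted p = 0.599), with overlap at young array 3 and aged array 53. Ndufaf4, which works with Ndufaf3 on the early Q module, read 28.8, 24.8 and 26.8 in young and 18.7, 16.9 and 22.1 in aged muscle (-0.49 ± 0.20, adjusted p = 0.449). It was the only assembly factor with groups apart, and its second probe set was at -0.28 with groups apart as well. Ndufaf2, a paralogue of Ndufa12 that acts late in assembly, read 4.36, 5.80 and 3.18 against 5.43, 3.47 and 3.91 (-0.04 ± 0.32). Ndufaf7, a methyltransferase acting on a core subunit, read 1.70, 2.11 and 1.78 against 2.62, 1.52 and 1.65 (0.01 ± 0.40). Neither showed an order of the groups.

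Ndufaf8, the partner of Ndufaf5, read 8.20, 10.5 and 10.8 in young and 10.4, 11.8 and 10.2 in aged muscle (0.14 ± 0.23), and its second probe set was at 0.71. Ndufaf5, which hydroxylates Ndufs7, read 1.33, 1.35 and 2.26 in young and 1.88, 1.86 and 2.48 in aged muscle (0.36 ± 0.41). Ndufaf6, needed to make a mitochondrially encoded subunit, read 2.29, 0.167 and 0.258 in young and 0.452, 1.54 and 2.11 in aged muscle (1.30 ± 1.03). It is the dimmest tested member, at percentile 18.9 of all tested probe sets, its young arrays spanned more than 10-fold, and with array 51 alone for aged muscle it was at -0.03. Ndufaf3 was below the filter, with readings of 0.0831 to 0.587. Except for Ndufaf4 and Ndufaf8, each tested factor had 1 tested probe set, and the factors were dimmer (median percentile 79.5) than the accessory subunits (98.7), with a median standard error of 0.32 against 0.23.

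A pair of Nduf genes are not complex I subunits in the usual sense. Ndufa4, first named as one and later placed in cytochrome c oxidase, read 39.97, 25.7 and 29.5 in young and 21.3, 18.0 and 30.1 in aged muscle (-0.46 ± 0.25, adjusted p = 0.574). Aged array 53 lay among the young arrays. Its paralogue Ndufa4l2, known as a gene induced by low oxygen, was below the filter, with 0.936, 0.0832 and 0.801 in young and 1.04, 0.209 and 0.529 in aged muscle.

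The aged arrays were not alike. The median deviation of the 40 genes from their young mean was -0.42 on array 51, -0.46 on array 52 and -0.15 on array 53, and between -0.10 and 0.08 on the young arrays. Array 51 lay below all young arrays on 27 genes, array 52 on 30 and array 53 on 14. Array 53 was the highest aged array on 31 of 40 genes. That array also had the highest ratio of 3 prime to 5 prime signal (2.86), and it shared its station with array 52. Without it all 32 subunits were below 0, the median of the 40 genes was -0.47 and 19 had an unadjusted p under 0.05. Without array 51 and without array 52 the median was -0.32 and -0.29, and 4 and 5 had an unadjusted p under 0.05. On all tested probe sets the median deviation was 0.08, 0.08 and 0.07 on the 3 aged arrays.

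**Figure D2:**
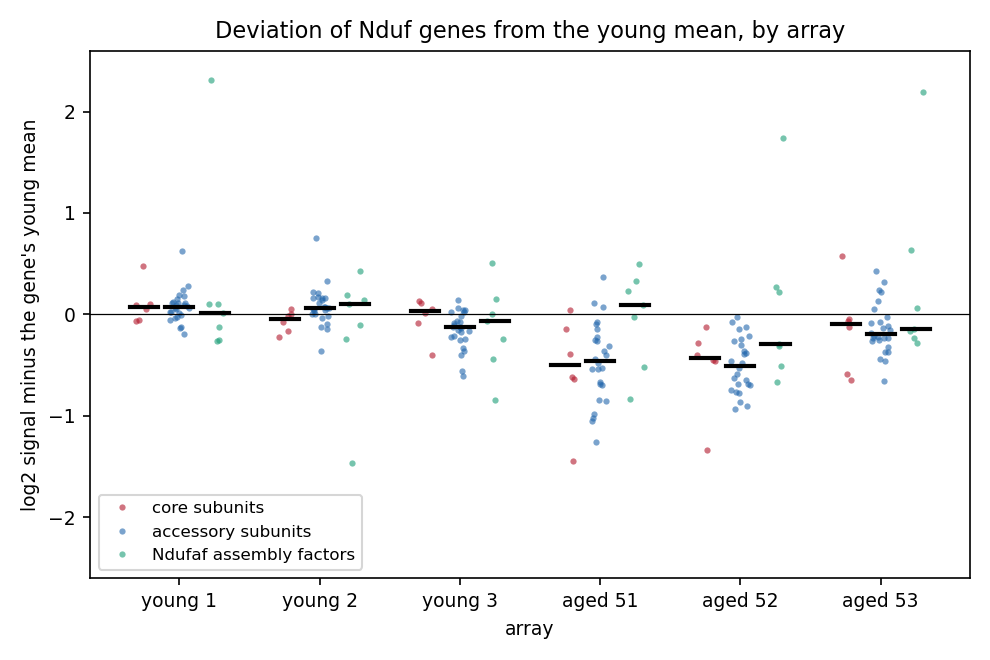
Log2 signal of each measured gene minus that gene's mean over the young arrays, by array, for core subunits (n = 6), accessory subunits (n = 26) and Ndufaf factors (n = 7), with black bars at the medians. The accessory subunits sit lower on aged arrays 51 and 52 (medians -0.46 and -0.51) than on aged array 53 (-0.20).

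The probe set chosen for a gene mattered for its change. The array maker's name endings a, s and x mark probe sets whose probes match more than 1 transcript, x those most open to cross-hybridisation, and 27 of the 40 chosen probe sets were of these kinds. In 17 genes both such a probe set and a plain one (ending in _at alone) passed the filter. The shared kind was the brighter in 16 of the 17, and the plain one had the lower change in 12 (70.6%), beside 50.2% of 1991 such genes in the whole table. The medians over the 17 genes were -0.54 for plain and -0.36 for shared probe sets, and over all tested probe sets 0.03 and -0.07. With shared probe sets left out, 29 genes remained, with all 23 subunits below 0 and a median of -0.54 over the subunits.

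**Figure D3:**
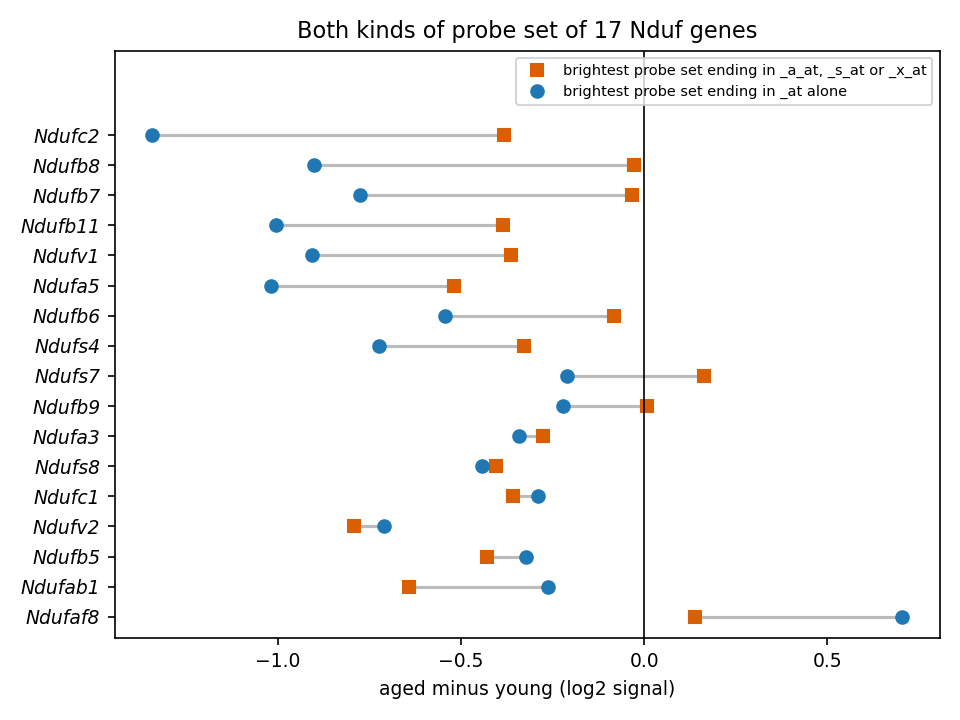
Change (aged minus young, log2 signal) of the brightest plain probe set (circles) and the brightest probe set ending in a, s or x (squares) of 17 Nduf genes. The plain probe set lies to the left in 12 genes, farthest in Ndufc2 (-1.34 against -0.38).

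Ndufc2, a membrane arm subunit, held the only called probe set among the 75 tested ones of Nduf genes (1.33%, near the 1.05% of all tested probe sets). Its plain probe set read 29.7, 35.8 and 26.9 in young and 15.3, 10.5 and 10.9 in aged muscle, with every aged array far below every young one (-1.34 ± 0.23, adjusted p = 0.0115). The brightest Ndufc2 probe set, which stands for the gene above, read 315, 365 and 303 against 241, 234 and 278, and another tested one lay between (-0.89, adjusted p = 0.101). On all 3 the groups were apart. The call was lost without young replicate 1 (-1.36, adjusted p = 0.0631), young replicate 2 (-1.23, adjusted p = 0.112) or aged replicate 52 (-1.24, adjusted p = 0.0746). It was also lost when array 51 alone stood for aged muscle (-0.998, adjusted p = 0.133 with the station as a term and 0.0867 on station 1), when the 3 prime to 5 prime ratio entered the fit (-1.23, adjusted p = 0.141) and in a fit without the trend of spread with brightness (-1.34, adjusted p = 0.395).

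Similar gaps were seen in other genes. The plain Ndufa5 probe set read 31.2, 32.7 and 22.2 in young and 14.0, 14.7 and 13.2 in aged muscle, with the groups apart (-1.02 ± 0.22, adjusted p = 0.0511), while its brighter partner was at -0.52. This probe set passed with no filter (adjusted p = 0.0458) and with a pseudocount (adjusted p = 0.0398), and over all alternatives its adjusted p lay between 0.0398 and 0.485. For Ndufb11 the plain one read 14.8, 13.3 and 14.2 in young and 6.53, 6.11 and 8.67 in aged muscle (-1.005 ± 0.23, adjusted p = 0.0778), and the brighter ones were at -0.39 and -0.43. It passed with array weights (adjusted p = 0.0459) and also when aged array 53 was left out (adjusted p = 0.0218), and over all alternatives its adjusted p lay between 0.0218 and 0.484. The plain probe sets of Ndufv1 (-0.91), Ndufb8 (-0.90) and Ndufb7 (-0.78) lay well below the chosen ones (-0.36, -0.03 and -0.03), and for Ndufb7 and Ndufb8 the plain ones had groups apart. In 22 genes with several tested probe sets 17 had all of them below 0. The 4 genes with probe sets on both sides of 0 were Ndufa10 (-0.29 and 0.14), Ndufb9 (0.01 and -0.22), Ndufs7 (0.17 and -0.21) and Ndufa7 (-0.31, 0.36, 0.16 and -0.20). Over all 75 tested Nduf probe sets 65 were below 0 and 24 (32%) had all aged arrays below all young ones, beside 49.5% and 8.74% of all tested probe sets and 64.5% and 23.7% of the bright ones.

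**Figure D4:**
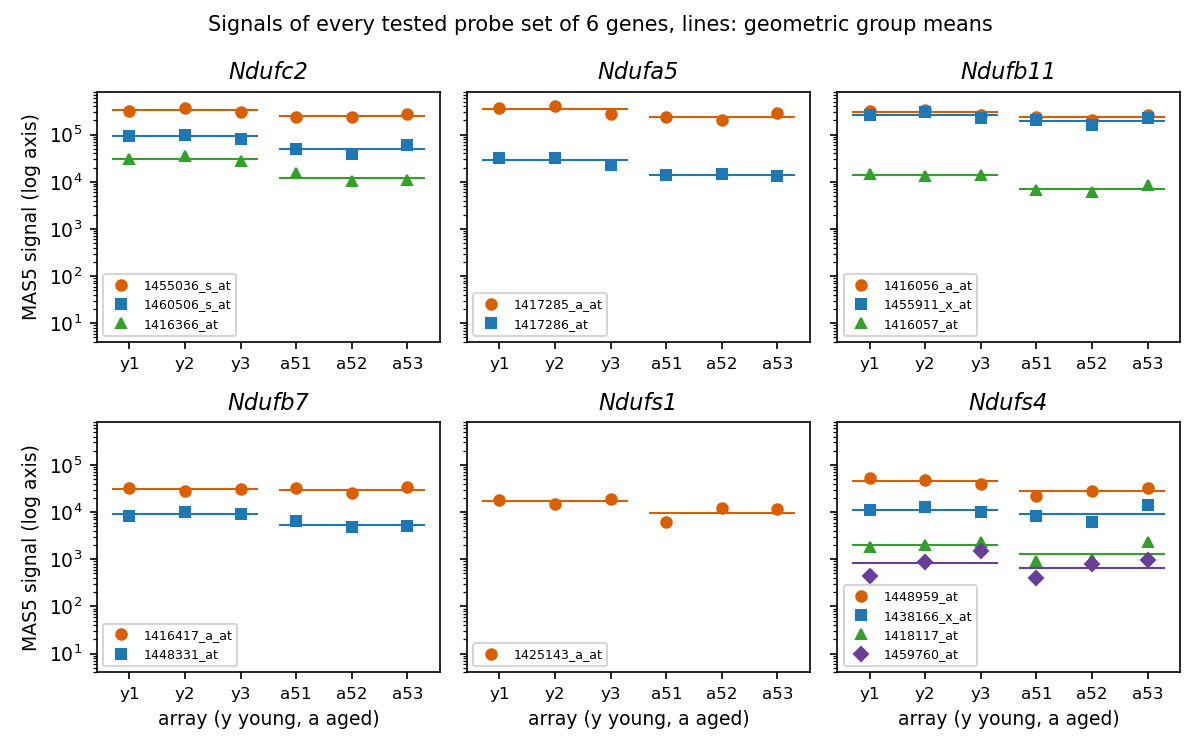
Signal on a log axis of every tested probe set of 6 genes on young arrays 1 to 3 (y) and aged arrays 51 to 53 (a), with lines at the geometric mean of each group. In Ndufc2, Ndufa5, Ndufb11 and Ndufb7 the dimmest probe set drops more than the brightest, and in Ndufs4 the brightest drops most.

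Other genes around complex I were mostly on both sides of 0, except those of the other respiratory complexes. Of 11 measured assembly factors with other names 0 passed, 5 were below 0 and the median was 0.05. Tmem126b, a membrane arm assembly factor, read 1.15, 0.420 and 0.359 in young and 2.07, 1.52 and 2.16 in aged muscle, all aged arrays above all young ones (1.76 ± 0.61, adjusted p = 0.308). Timmdc1, which acts on the same arm, also had aged arrays above young ones (0.50 ± 0.36), and Nubpl (0.98) and Foxred1 (0.83) did not. Such an order was seen on 2 of the 11 factors, beside 7.41% of all tested probe sets. Undivided signals of Tmem126b on young arrays 2 and 3 (420 and 359) lay below the filter's signal of 540. So did those of Nubpl on young array 2 (165) and aged array 52 (520). Of 10 measured regulators of mitochondrial gene expression 0 passed and 5 were below 0 (median 0.03), with Nrf1 at 1.11 ± 0.97, Tfam at 0.43, Ppargc1a at -0.37 and Ppargc1b at -0.35. Nrf1 had an undivided signal of 102 on young array 3, below the filter's signal. It read 1072 and 2085 on young arrays 1 and 2, and 883 to 1926 on the aged arrays. Of 12 measured genes of the mitochondrial membranes and protein import 0 passed and 8 were below 0 (66.7%, median -0.12). Named among the 12 are Tomm40 at -0.59, Vdac2 at -0.49, Tomm20 at -0.48 and Phb2 at 0.38. Beside these lists, 1.05% of all tested probe sets passed and 49.5% were below 0. Of the bright probe sets 64.5% were below 0, and the membrane and import genes were bright (median percentile 96.3). Of 41 measured genes of complexes II to V, with Ndufa4 counted here too, 38 were below 0 (median -0.43). Beside them stood 49.5% of all tested probe sets and 64.5% of the bright ones. By the test 1 of the 41 fell (2.44%), beside 0.742% of all tested probe sets. The gene that fell was Atp5o, a subunit of ATP synthase (-1.12 ± 0.22, adjusted p = 0.0299). On 18 of 41 (43.9%) the groups were apart, beside 10 of 32 complex I subunits (31.2%), 8.74% of all tested probe sets and 23.7% of the bright ones. The difference between the complexes was not tested. The mitochondrially encoded subunits of complex I were not analysed here.

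The median of the subunits stayed below 0 under all 19 alternatives run. The eBayes alternatives alter only the spread and could not move this median, and both station fits are the same comparison. Of 32 subunits 25 to 32 were below 0, as were 32 of 34 with no filter and all 23 left without shared probe sets. The size of the subunit median varied. It was -0.20 after quantile normalization and -0.46 with the station in the fit, which leaves array 51 alone for aged muscle, beside -0.37. With the 3 prime to 5 prime ratio in the fit it was -0.60. Every aged array had a higher ratio than any young one, so that fit cannot separate the ratio from age. Median centring moved the median of all tested probe sets to -0.11, and relative to it the subunits lay at -0.38, the same distance as without it. Centring shifts all probe sets of an array equally, so this distance could not change. The median of the assembly factors lay between -0.23 and 0.17 and changed sign between settings.

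**Figure D5:**
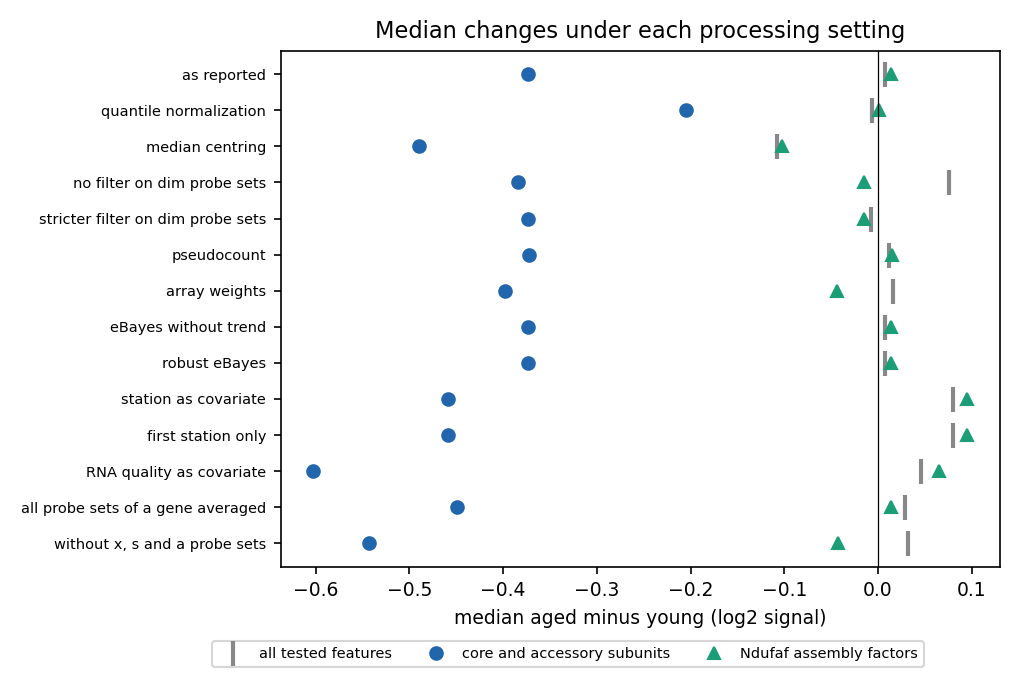
Median change (aged minus young, log2 signal) of complex I subunits, Ndufaf factors and all tested features under each processing setting, without the settings that leave out 1 array. The subunits lie between -0.60 and -0.20 and the assembly factors near 0.

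What the promoters share was described from RefSeq sequence of build GRCm38.p6, in windows from 250 bases before to 50 after a transcript start. Windows were found for 39 of the 44 genes, 41 in all, and letters were searched on both strands. The letters AAGATGGC, the core of the site of the factor YY1, stood in 7 of 41 windows (17.1%) and in 2.75% of 32851 windows of all genes. GCGCATGC, part of the site of the factor NRF1, stood in 4 (9.76%, against 2.71%). AAGGTCA, a site of estrogen-related receptors, stood in 3 (7.32%, against 4.72%), in Ndufb2, Ndufb4 and Ndufs5, and CCGGAAGT, an ETS site of the kind GABPA binds, stood in 1 (2.44%, against 3.89%), in Ndufs3. All 7 occurrences of AAGATGGC lay after the start and on the gene's own strand, beginning at base 11 to 39 of the transcript. The letters hold ATG, the triplet of a start codon, and whether they mark a start of translation or bind YY1 was not tested. The 7 occurrences are printed as 30 bases each, 5′ to 3′ on the gene's strand, with the match in capitals, because this shared place was not part of how the genes were chosen.
Ndufc1 (chr3:51408915-51408944, minus strand): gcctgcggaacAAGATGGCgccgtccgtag
Ndufa9 (chr6:126849097-126849126, minus strand): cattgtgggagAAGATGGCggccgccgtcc
Ndufa3 (chr7:3617384-3617413, plus strand): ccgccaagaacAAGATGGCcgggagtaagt
Ndufs7 (chr10:80249462-80249491, plus strand): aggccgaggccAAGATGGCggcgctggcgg
Ndufaf8 (chr11:120098933-120098962, plus strand): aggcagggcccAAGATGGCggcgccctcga
Ndufs4 (chr13:114388045-114388074, minus strand): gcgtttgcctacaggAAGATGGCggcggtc
Ndufb8 (chr19:44555393-44555422, minus strand): tgaaccgcggagaaggtgAAGATGGCtgcc

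The 7 genes with AAGATGGC ranged from -0.72 (Ndufs4) to 0.17 (Ndufs7), with a median of -0.28, and 29 measured genes with a window and no such letters had a median of -0.39. The NRF1 letters stood before the start in Ndufa6 and Ndufa8 (both -0.45) and after it in Ndufaf5 (0.36). In Ndufaf4 (-0.49) they stood on both sides of the start, and the changes again lay on both sides of 0. The Ndufaf4 copy printed begins 113 bases before the start, and the Ndufa6 copy, read on the opposite strand, 83 bases before it. They are shown for comparison with the capitals at the match.
Ndufaf4 (chr4:24897959-24897988, plus strand): cccagatgtctGCGCATGCgcctgtgcgga
Ndufa6 (chr15:82354356-82354385, minus strand): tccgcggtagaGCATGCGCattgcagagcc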

How the data were processed

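The authors deposited a linear intensity for each probe set. MAS5 is the tool that the submitters' processing notes name, without a version. On every array the mean after trimming 2% at each end was 1500. The fluidics station was read from the deposited run settings.

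Intensities were taken to log2. Of 45101 probe sets, 64 controls were left out, then those with a mean below the median of 9.08 (a signal of 540), leaving 22519. limma 3.58.1 in R 4.3.3 (lmFit, eBayes with a trend) compared 3 aged with 3 young arrays, two-sided, with Benjamini-Hochberg adjustment over all 22519, at 0.05. The fit was tested on simulated data. All 44 genes matched the reference by gene ID.

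Of the genes named, every array is given for core subunits, Ndufaf factors, Ndufa4, Ndufs4, Ndufa9, Ndufb8, Ndufab1, and the accessory subunits with the 4 highest and 8 lowest changes. The called Ndufc2 probe set, and those of Ndufa5 and Ndufb11, were chosen after their values were seen. Members and lists were chosen with earlier results of these data known.

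The alternatives tried were median centring, quantile normalization, a filter at the 60th percentile or none, a pseudocount of 219, array weights, eBayes without trend or robust, the station or the ratio of 3 prime to 5 prime signal as a covariate, the first station alone, averaged probe sets, shared probe sets left out, and each array left out. Figures were drawn with matplotlib 3.10.9.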

Additional observations from a re-analysis of the deposited data

How the results depend on the processing

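The number of arrays limits precision: the median standard error was 0.23 for the members and 0.56 for all tested probe sets. No paired analysis was possible because young and aged arrays share no replicate number. The count of genes past the test was 0, and 1 with the station in the fit, on the arrays of station 1 (Ndufs1 in both) and with shared probe sets left out (Ndufc2). Both station fits compare aged array 51 alone with the young arrays, so they are 1 comparison, and that array is assumed to vary like the others.

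The accessory median of -0.37 was -0.20 after quantile normalization, -0.58 with the 3 prime to 5 prime ratio in the fit and -0.58 without shared probe sets, and the core median of -0.38 was -0.68 with that ratio. The ratio was higher on every aged array than on any young one, so fits with it cannot separate it from age. The assembly factor median of 0.013 was -0.10 with median centring, -0.0146 with no filter or a stricter one, -0.0439 with array weights, -0.0427 without shared probe sets, and -0.23 to 0.17 with 1 array left out.

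Of 40 genes 12 changed sign somewhere. After quantile normalization Ndufa12 was at 0.00202, Ndufaf2 at 0.000808, Ndufaf7 at -0.0245, Ndufb6 at 0.0498, Ndufb7 at 0.0992, Ndufb8 at 0.18 and Ndufv3 at 0.15. Median centring gave Ndufaf7 -0.10 and Ndufb9 -0.11, and array weights -0.0439 and -0.0166. With the station in the fit, and equally on the arrays of station 1, Ndufa7 was at 0.37, Ndufaf2 at 0.33, Ndufaf6 at -0.0305 and Ndufb7 at 0.0748. With the 3 prime to 5 prime ratio in the fit Ndufa3 was at 0.12, Ndufaf2 at 0.0103, Ndufb9 at -0.0513 and Ndufs7 at -0.28. Averaging probe sets gave Ndufa7 0.00151, Ndufb9 -0.11 and Ndufs7 -0.0229, and leaving out shared ones gave Ndufb9 -0.22 and Ndufs7 -0.21. With 1 array left out the ranges were Ndufa12 -0.24 to 0.00364, Ndufa7 -0.66 to 0.0625, Ndufaf2 -0.26 to 0.17, Ndufaf7 -0.23 to 0.17, Ndufb6 -0.33 to 0.15, Ndufb7 -0.11 to 0.10, Ndufb8 -0.20 to 0.0866, Ndufb9 -0.11 to 0.10, Ndufs7 -0.0405 to 0.31 and Ndufv3 -0.12 to 0.025. The causes were not tested.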

Other observations

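Probe sets that the platform's gene table pairs with several symbols were not members, since they cannot be given to 1 gene, and 10 of them include an Nduf symbol. The probe set shared by Ndufs6 and Ndufs6b read, as signal divided by 1000, 35.3, 38.6 and 37.3 in young and 36.7, 37.9 and 28.2 in aged muscle (-0.12 ± 0.20, adjusted p = 0.864), and Ndufs6, an N module subunit, has no probe set of its own in that table. Those shared by Ndufa11 and Ndufa11b read 4.50, 7.27 and 8.06 in young and 6.51, 3.74 and 6.20 in aged muscle on the tested one (-0.27). The pair shared by Ndufb4, Ndufb4b and Ndufb4c was at -0.16 and -0.70 and bright, whereas the Ndufb4 probe set with 1 symbol was dim. The probe set shared by Ndufs5 and its pseudogene was at -0.52, beside -0.73 for the one of Ndufs5 alone.

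A dim Ndufa12 probe set, chosen after its values were seen, read 0.136, 0.129 and 0.0414 in young and 0.808, 0.834 and 0.768 in aged muscle. The groups were far apart and opposite in direction to the 3 bright Ndufa12 probe sets (-0.08, -0.14 and -0.30). It lay below the filter, and in the fit without a filter its change was 3.16 ± 1.17 (adjusted p = 0.432). What this probe set detects was not tested.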
